A study of Rattus norvegicus with 21 samples.

Results

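Inhibitors of cyclin-dependent kinases (CDKs) and the retinoblastoma (RB) pathway were followed in the rat anterior pituitary through 10 genes, Cdkn1a, Cdkn1b, Cdkn1c, Cdkn2a, Cdkn2b, Cdkn2c, Cdk4, Rb1, Rbl1 and E2f1. Every probe set to which the platform annotation gives one of these symbols was taken, which came to 13 of 31042 probe sets. A probe set was tested if 3 or more arrays gave it a signal over their own 40th percentile. Of the 13 probe sets, 11 passed, and they covered 9 of the 10 genes. Cdkn2b did not pass.

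The arrays came from male rats of the ACI, Copenhagen (COP) and Brown Norway (BN) inbred strains, with 4 diethylstilbestrol (DES) arrays and 3 control arrays per strain and 21 arrays in all. DES is a synthetic estrogen, and it was given for 12 weeks from an implant of 5 mg placed at 9 weeks of age, whereas controls carried the tubing without hormone. All rats were injected with the DNA label BrdU (50 mg/kg) 4 hours before they were killed at 21 weeks, ACI and BN rats came from one supplier and COP rats from another, and RNA of the gland was hybridized to the Affymetrix Rat Genome 230 2.0 array. The notes on single samples name 3 control males that gave 2 independent replicates and 4 DES males that gave 3, while the design of the series counts each array, and each array was taken here as 1 rat, so that p values measure the spread between arrays. The gland was measured as a whole, so fewer cells of a type and less RNA per cell cannot be told apart.

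CDKs act with cyclins to carry a cell through division. CDK4 with a D-type cyclin adds phosphate to the RB protein, which then releases E2F transcription factors that turn on genes for DNA replication. The Cip/Kip inhibitors p21 (Cdkn1a), p27 (Cdkn1b) and p57 (Cdkn1c) bind CDK and cyclin together, and the Ink4 inhibitors p16 (Cdkn2a), p15 (Cdkn2b) and p18 (Cdkn2c) bind CDK4 and its relative CDK6. The pathway is known for pituitary growth: mice without Cdkn1b or Cdkn2c, and mice heterozygous for Rb1, develop pituitary tumors, and a rat line with a mutated Cdkn1b has a multiple endocrine tumor syndrome that includes the pituitary.

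Promoters of 8 of the 10 genes were matched by symbol in RefSeq sequence of the GRCr8 build, and those of Cdkn1c and E2f1 were not. The 250 bases upstream of the start site are shown for Cdk4 and Cdkn1b, whose signals are compared between strains below, and for Rbl1, which held the E2F motif. Capitals mark CACGTG, the E-box bound by MYC and related factors, in Cdk4 (chr7:64771203-64771452, plus strand), CCAAT or its reverse complement, bound by NF-Y, in Cdkn1b (chr4:169491254-169491503, plus strand), and TTTCGCGC, a form of the E2F site, in Rbl1 (chr3:166289377-166289626, minus strand).
Cdk4: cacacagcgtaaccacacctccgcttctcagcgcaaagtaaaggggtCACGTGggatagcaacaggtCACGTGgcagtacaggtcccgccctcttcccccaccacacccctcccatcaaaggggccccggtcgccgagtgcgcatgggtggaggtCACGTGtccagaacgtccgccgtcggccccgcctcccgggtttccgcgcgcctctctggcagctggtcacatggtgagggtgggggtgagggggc
Cdkn1b: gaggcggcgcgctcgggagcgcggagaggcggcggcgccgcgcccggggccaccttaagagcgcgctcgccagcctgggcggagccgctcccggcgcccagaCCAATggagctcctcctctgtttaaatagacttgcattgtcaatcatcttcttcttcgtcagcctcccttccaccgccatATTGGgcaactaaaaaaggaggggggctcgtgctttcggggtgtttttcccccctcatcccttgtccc
Rbl1: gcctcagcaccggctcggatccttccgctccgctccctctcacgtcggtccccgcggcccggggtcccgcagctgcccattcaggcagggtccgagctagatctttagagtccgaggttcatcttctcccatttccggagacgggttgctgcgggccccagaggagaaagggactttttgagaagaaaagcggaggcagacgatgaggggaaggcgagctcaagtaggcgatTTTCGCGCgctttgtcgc
The Cdk4 window held 3 E-boxes, which begin 203, 183 and 95 bases before the start. An E-box was found in 5.59% of 33469 promoters of this length, and 3 or more in 17 of them (0.0508%). Among the 8 windows, the E2F motif, searched as TTTCCCGC, TTTCGCGC, TTTGCCGC or TTTGGCGC, was found in Rbl1 alone, 18 bases before the start, and in 1.73% of all promoters. Cdkn1b held 2 CCAAT motifs, at 148 and 68 bases, a number or more that 9.42% of all promoters held. AGGTCA, the repeat unit of an estrogen response element, was found in Cdk4, where 2 matches overlap E-boxes, and in Cdkn2a, and in 14.1% of all promoters. The full element, AGGTCA and its reverse complement 3 bases apart, was in none of the 8 windows and in 0.00896% of all promoters. Both strands were searched, the motifs were chosen with the sequences in view, and a match is a description of the letters only.

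Signals are linear intensities per probe set, scaled by the authors to a common level per array, and they cannot be compared between probe sets. The 40th percentile of the arrays lay between 67 and 90.6, and array medians lay between 119.3 and 152.1. Changes are differences of log2(signal + 16), fitted with limma over all arrays, and a gene was called at an adjusted p under 0.05 over all 21858 probe sets tested. The 11750 genes tested had a median log2 change with DES of -0.13 in ACI, -0.08 in COP and -0.06 in BN. The exact permutation test over the 35 splits of 4 and 3 arrays cannot give a p below 0.0286. Statements that groups did or did not overlap describe the arrays only, since the share of all genes without overlap is not given here. Counts at an unadjusted p under 0.05 likewise have no share of all genes beside them. Deviations of arrays from their group means correlated by sets of the numbers in the labels, with a median r of 0.112 between arrays of different numbers within the sets 1 and 2 or 3 and 4, and of -0.124 across sets. The labels do not say what the arrays of a set share, so changes are also given within each set, of which 3 and 4 hold 1 control array per strain.

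After DES, the Cip/Kip inhibitors moved in opposite directions. Cdkn1a and Cdkn1b were called higher and Cdkn1c lower in each of the 3 strains, and the Ink4 inhibitor Cdkn2c was called higher in each. As given below, the Cdkn1b calls ended with quantile normalization, and the Cdkn1a call in BN ended without some single arrays. Cdk4 and E2f1 rose in ACI, and Cdkn2a, Rb1 and Rbl1 were not called with DES in any strain. In ACI 6 of the 9 tested genes were called (5 higher, 1 lower), beside 55.5% of all genes tested (23.1% higher, 32.4% lower). For COP the count was 4 of 9 (3 higher, 1 lower), beside 49.7% of all genes (21.6% higher, 28.1% lower), and for BN it was 4 of 9 (3 higher, 1 lower), beside 39.5% (16.9% higher, 22.6% lower). In ACI 41.7% of all called genes were higher, or 57.7% when arrays were centred on their medians. DES changed a large part of the measured genes. With 9 genes tested, the share called in either direction was near that of all genes in each strain (66.7% in ACI, 44.4% in COP and in BN). The 9 genes had median log2 changes of 0.47, 0.16 and 0.22 in ACI, COP and BN.

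**Figure D1:**
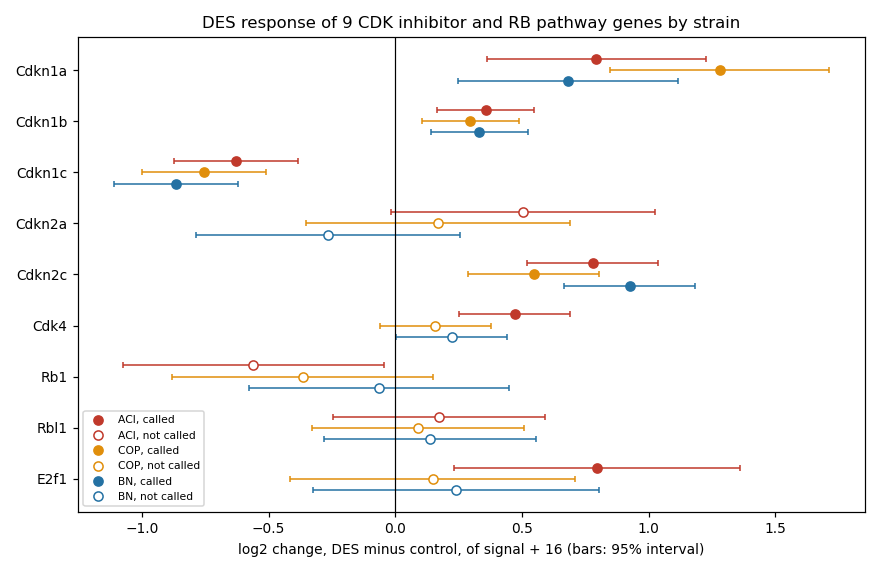
Log2 change of signal + 16, DES minus control, on the horizontal axis for 9 genes, with 95% intervals, in ACI, COP and BN rats (4 DES and 3 control arrays each); filled points were called at an adjusted p under 0.05. Cdkn1a, Cdkn1b and Cdkn2c lie right of 0 and Cdkn1c left of 0 in the 3 strains, and Cdk4 and E2f1 are filled in ACI.

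Cdkn1a encodes p21, which stops the cycle after DNA damage under the control of p53 and in other arrest programs. Its signal was 422, 371, 373 and 449.6 in DES-treated ACI rats, against 232, 179 and 276 in ACI controls. In COP it was 445, 354, 396 and 523 with DES, against 188, 124 and 195 in controls. Both strains had every DES array above every control. In BN it was 255, 251, 165 and 309 with DES, against 121, 130.4 and 185 in controls, and DES array 3 lay below control 3. The log2 change was 0.79 in ACI (SE 0.209, adjusted p = 0.00314), 1.28 in COP (adjusted p = 3.36e-05) and 0.68 in BN (adjusted p = 0.0147), and the exact permutation p was 0.0286, 0.0286 and 0.0857. COP had the highest change of the 3 point estimates, but its excess over BN (0.60, 95% interval -0.02 to 1.21, adjusted p = 0.291) and that of ACI over COP (-0.49, 95% interval -1.10 to 0.13, adjusted p = 0.636) did not pass. The BN call was lost without BN control 1 (0.57, adjusted p = 0.0798), BN control 2 (0.62, adjusted p = 0.0583) or BN DES 4 (0.57, adjusted p = 0.0549), and when only the BN groups entered the fit (adjusted p = 0.0672). Within the numbers 1 and 2 the changes were 0.91, 1.29 and 0.93 in ACI, COP and BN, and within 3 and 4 they were 0.55, 1.16 and 0.27, where the ACI and BN changes were not called (adjusted p = 0.272 and 0.63).

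Cdkn1b encodes p27, which holds CDK2 with cyclin E in check and is removed by the SKP2 ubiquitin ligase when cells enter S phase. Its signal was 5041, 4955, 5266 and 5082 in DES-treated ACI rats, against 3979.8, 3945 and 3969.9 in ACI controls. In COP it was 5724, 5319, 5227 and 5323 with DES, against 4106, 4644 and 4432 in controls. In BN it was 7046, 7714, 7199.9 and 7775 with DES, against 6223, 6689.8 and 4929.6 in controls. The groups did not overlap in any strain, and the BN groups were the highest of each treatment. DES raised Cdkn1b by similar log2 changes, 0.36 in ACI (SE 0.0922, adjusted p = 0.00268), 0.30 in COP (adjusted p = 0.0122) and 0.33 in BN (adjusted p = 0.00785), with an exact permutation p of 0.0286 in each strain. Quantile normalization between arrays ended these calls (0.12, 0.08 and 0.04 in ACI, COP and BN, with adjusted p of 0.348, 0.559 and 0.798), and leaving out COP control 1 ended the COP call (0.25, adjusted p = 0.0702), as leaving out BN control 3 did for BN (0.20, adjusted p = 0.0967). In numbers 1 and 2 the changes were 0.33, 0.34 and 0.19, not called in BN (adjusted p = 0.0895), and in numbers 3 and 4 they were 0.38, 0.25 and 0.60, not called in COP (adjusted p = 0.154). The BN call was also lost when only the BN groups entered the fit (adjusted p = 0.103).

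Cdkn1c encodes p57, an imprinted inhibitor that takes part in the exit of progenitors from the cell cycle in the embryonic pituitary of the mouse. It was the single member that fell. Its signal was 585, 654, 544 and 518 in DES-treated ACI rats, against 879.8, 937 and 868 in ACI controls. In COP it was 571, 597, 558 and 605 with DES, against 1026, 1004 and 954 in controls. For BN the values were 494, 504, 691 and 538 with DES, against 936, 1008 and 1123 in controls. No DES array reached the lowest control of its strain. ACI, COP and BN rats averaged 575 ± 58.9, 583 ± 22.0 and 557 ± 91.6 with DES (SD, n = 4 each), against 895 ± 36.9, 995 ± 37.1 and 1022 ± 94.4 in controls (SD, n = 3 each), and the 3 DES means lay closer together than the SD of the ACI or the BN group. Cdkn1c fell by 0.63 in ACI (adjusted p = 0.000123), by 0.75 in COP (adjusted p = 1.93e-05) and by 0.87 in BN (SE 0.118, adjusted p = 5.92e-06), and the call held under each alternative that was run. The changes were -0.54, -0.78 and -0.94 in numbers 1 and 2, and -0.69, -0.70 and -0.86 in numbers 3 and 4. Listed markers of several cell types also fell with DES, among them gonadotrophs, folliculostellate and stem cells, somatotrophs and fibroblasts, while some listed markers rose. Their values or counts are given with the cell type markers below. The part of cell makeup in the fall of Cdkn1c was not tested.

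Of the Ink4 genes, Cdkn2c encodes p18, a binder of CDK4 and CDK6. Its signal was 1504.5, 1408.5, 1584 and 1640.4 in DES-treated ACI rats, against 808, 809.7 and 1064 in ACI controls. COP rats had 1375, 1353, 1416 and 1767 with DES, against 955, 1053.5 and 997 in controls. BN rats had 1573, 1664, 1939 and 2118 with DES, against 1008, 946 and 888 in controls. Again no DES array overlapped a control of its strain. The log2 change was 0.78 in ACI (SE 0.124, adjusted p = 1.8e-05), 0.55 in COP (adjusted p = 0.00108) and 0.93 in BN (adjusted p = 5e-06). These calls held when any single array was left out, within both number sets and under each scaling, but not on the dimmer probe set of the gene, which is described below. Cdkn2c changed by 0.84, 0.44 and 0.72 in numbers 1 and 2 and by 0.59, 0.66 and 1.18 in numbers 3 and 4. COP had the smallest of the 3 changes, and its difference from BN was -0.38 (95% interval -0.74 to -0.02, adjusted p = 0.247).

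Cdkn2a, whose locus gives p16 and the p53 activator Arf, was tested on 1 probe set, and the annotation does not say which transcript it reads. The signal was 356, 312, 237 and 215 in DES-treated ACI rats, against 238, 149 and 189 in ACI controls, 295, 339.8, 219 and 221 in DES-treated COP rats, against 366, 181 and 190.2 in COP controls, and 293, 248, 216 and 255 in DES-treated BN rats, against 314, 423 and 214 in BN controls. The groups overlapped in each strain. The log2 change was 0.50 in ACI (95% interval -0.02 to 1.02, adjusted p = 0.103), 0.17 in COP (adjusted p = 0.624) and -0.27 in BN (adjusted p = 0.446). The ACI change passed with arrays centred on their medians (0.72, adjusted p = 0.0175), with quantile normalization (0.69, adjusted p = 0.0185) and with the number set as a block (0.57, adjusted p = 0.0222). In numbers 1 and 2 Cdkn2a changed by 0.77 in ACI, where it was called (adjusted p = 0.0254), by 0.28 in COP and by -0.42 in BN, and in numbers 3 and 4 it changed by 0.23 (adjusted p = 0.6), 0.19 and 0.12. Cdkn2b, which encodes p15 and lies next to Cdkn2a, was at the floor of the array. Its mean signal was 26.9, 17.7 and 42.4 in DES-treated ACI, COP and BN rats, against 32.6, 47.5 and 40.9 in their controls, under the 40th percentile in every group. Exact permutation tests of Cdkn2b gave p = 0.657, 0.0857 and 0.914 in ACI, COP and BN, and its level could not be followed at this signal.

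Cdk4 encodes the kinase that the Ink4 proteins inhibit. Its signal was 5843, 5312, 5071 and 4945 in DES-treated ACI rats, against 4146, 3962 and 3356 in ACI controls. COP rats had 4617, 5184, 4769 and 4808 with DES, against 4237, 4640 and 4142 in controls. BN rats had 4363, 4570.4, 3569 and 4626 with DES, against 3908, 3807 and 3268 in controls. All DES arrays of ACI lay above its controls, while COP and BN each had a DES array below the highest control. The rise was 0.47 in ACI (SE 0.105, adjusted p = 0.000737), and the changes of 0.16 in COP (adjusted p = 0.239) and 0.22 in BN (adjusted p = 0.111) did not pass. The response was greater in ACI than in COP by 0.31 (95% interval 0.00413 to 0.62), at an adjusted p of 0.489. The ACI call was lost with quantile normalization (0.22, adjusted p = 0.116), whereas with arrays centred on their medians the change passed in COP (0.26, adjusted p = 0.0464) and in BN (0.30, adjusted p = 0.0287) too. The BN change also passed with the number set as a block (0.25, adjusted p = 0.0291) and without BN DES 3 (0.31, adjusted p = 0.0213), and the COP change was -0.05 with quantile normalization. Within numbers 1 and 2 Cdk4 changed by 0.46, 0.14 and 0.21 in ACI, COP and BN, and within numbers 3 and 4 by 0.58, 0.21 and 0.31.

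E2f1 encodes the E2F factor most closely tied to RB, which drives S phase genes once it is set free. Its signal was 295, 249, 309 and 216 in DES-treated ACI rats, against 133, 163 and 142 in ACI controls. In COP it was 250.5, 300.5, 123 and 178 with DES, against 180.1, 203 and 162 in controls. In BN it was 122, 102, 229.6 and 102 with DES, against 76.9, 134 and 123 in controls. ACI groups were apart, whereas COP and BN groups overlapped and DES arrays of those strains spread widely. The log2 change was 0.80 in ACI (SE 0.272, adjusted p = 0.0188), 0.15 in COP (adjusted p = 0.698) and 0.24 in BN (adjusted p = 0.538). The ACI response exceeded that of BN by 0.56 (95% interval -0.24 to 1.35, adjusted p = 0.382) and that of COP by 0.65 (95% interval -0.15 to 1.45, adjusted p = 0.624), so a difference between strains was not shown. The ACI call was lost without ACI control 1 (0.74, adjusted p = 0.0642) or ACI DES 3 (0.72, adjusted p = 0.0503). The ACI change was 0.81 in numbers 1 and 2 and 0.80 in numbers 3 and 4, where it was not called (adjusted p = 0.226). In COP it was 0.49 and -0.12, and in BN 0.11 and 0.29, in the same sets.

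The pocket proteins bind E2F factors, RB (Rb1) the activators among them and p107 (Rbl1) mainly the repressors. Rb1 had a signal of 138, 254, 294 and 184 in DES-treated ACI rats, against 293, 339 and 318 in ACI controls. It had 276, 199.6, 207 and 243 in DES-treated COP rats, against 274, 276 and 359 in COP controls. The BN values were 540.2, 423, 304 and 234 with DES, against 489, 301 and 358 in controls. DES array 3 of ACI lay just above control 1, and the other 3 DES arrays lay below all ACI controls. The log2 change of -0.56 in ACI missed the threshold (95% interval -1.07 to -0.05, adjusted p = 0.0663), and it was called without ACI DES 3 (-0.71, adjusted p = 0.0264). It was -0.37 in COP (adjusted p = 0.25) and -0.06 in BN (adjusted p = 0.872). Rb1 changed by -0.70 (adjusted p = 0.0338, called), -0.21 and 0.30 in ACI, COP and BN within numbers 1 and 2, and by -0.42 (adjusted p = 0.361), -0.64 and -0.40 within numbers 3 and 4. Rbl1 had means of 321 ± 23.3, 289.7 ± 54.4 and 327 ± 80.2 in DES-treated ACI, COP and BN rats (SD, n = 4 each), against 293 ± 103, 269.7 ± 41.8 and 291.5 ± 25.8 in their controls (SD, n = 3 each). Its changes of 0.17, 0.09 and 0.14 did not pass (adjusted p of 0.502, 0.753 and 0.646), and the intervals reached from -0.33 at the lowest to 0.59 at the highest. Its sign differed between the number sets in each strain, with 0.41, -0.13 and -0.14 in numbers 1 and 2 and -0.32, 0.43 and 0.47 in numbers 3 and 4.

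**Figure D2:**
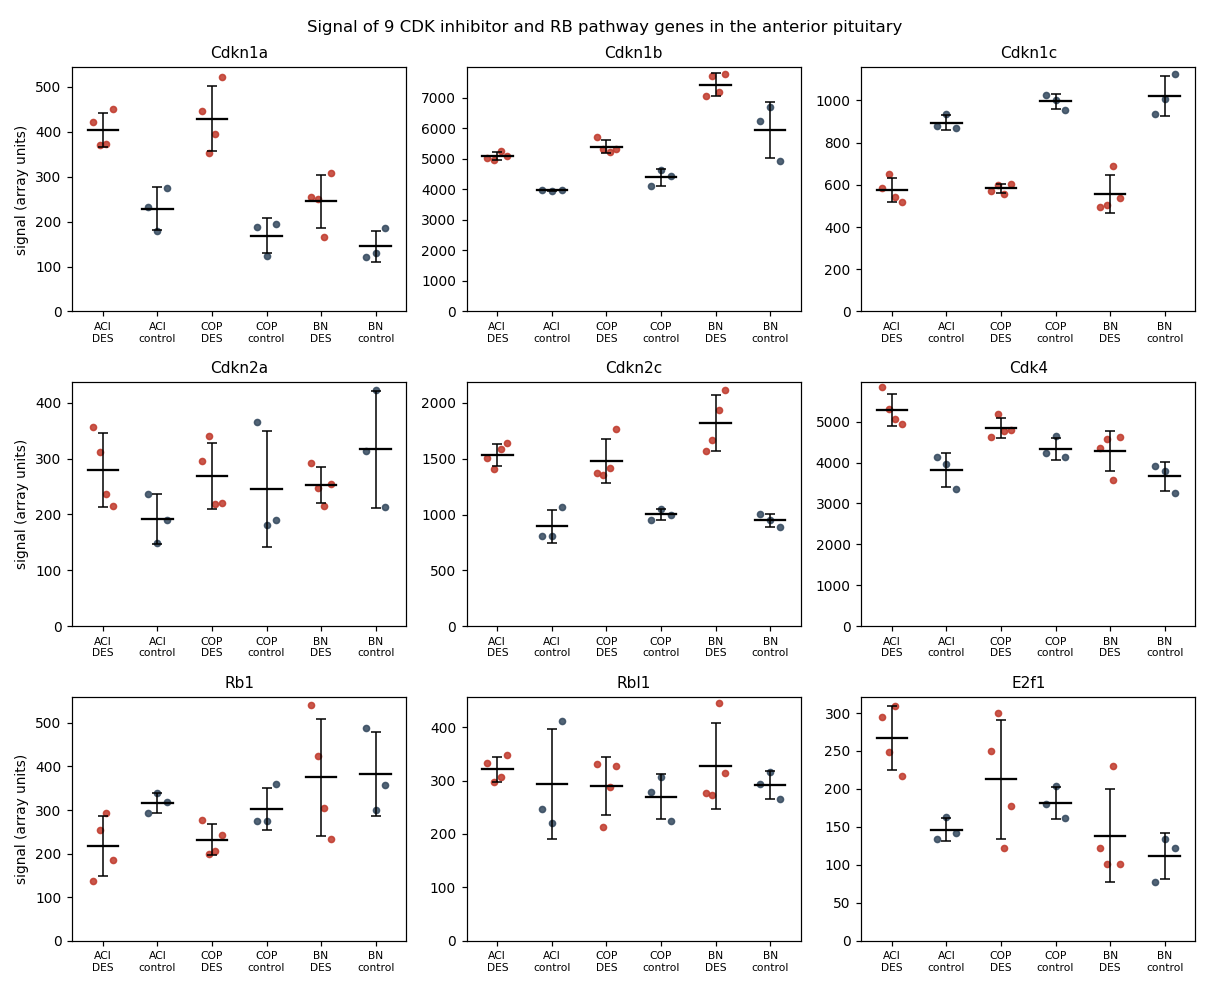
Signal in array units on a linear axis from 0 for 9 genes (1 probe set each), with a point for each array, a bar at the mean and whiskers of 1 SD, in DES-treated (red, n = 4) and control (dark, n = 3) rats of the ACI, COP and BN strains. For Cdkn1c the DES points lie under the controls in each strain, and for Cdkn1b the BN points lie above the ACI points of the same treatment.

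The strains were next compared under the same treatment. DES-treated ACI rats differed from DES-treated BN rats in 5 of 9 genes (3 higher, 2 lower), beside 36.1% of all genes (16.4% higher, 19.7% lower). ACI was higher for Cdkn1a (404 ± 38.5, against 245 ± 59.5 in BN, log2 difference 0.71, adjusted p = 0.00682), Cdk4 (5292 ± 397, against 4282 ± 489, 0.31, adjusted p = 0.0183) and E2f1 (267 ± 42.6, against 139 ± 61.4, 0.93, adjusted p = 0.00657). ACI was lower for Cdkn1b (5086 ± 131, against 7434 ± 365 in BN, -0.55, adjusted p = 3.71e-05) and Rb1 (217 ± 69.8, against 375 ± 135, -0.73, adjusted p = 0.0181); errors are SD with n = 4. The arrays of the strains did not overlap for Cdkn1a, Cdkn1b and Cdk4, and they overlapped for E2f1 and Rb1. Without ACI DES 1 the Cdk4 and Rb1 calls were lost (0.26 and -0.55, adjusted p = 0.0691 and 0.0842), the Cdk4 call also without BN DES 3 (0.22, adjusted p = 0.0746), and the Rb1 call also without ACI DES 4 (-0.67, adjusted p = 0.0506) or BN DES 1 (-0.54, adjusted p = 0.0758). Cdk4 was not called with quantile normalization (0.23, adjusted p = 0.106) or with only these groups in the fit (adjusted p = 0.0707), and Rb1 was not called with median centring (-0.57, adjusted p = 0.056) or with only these groups (adjusted p = 0.0785). All 5 genes were called within numbers 1 and 2 (0.62 for Cdkn1a, -0.56 for Cdkn1b, 0.32 for Cdk4, -1.28 for Rb1 and 1.17 for E2f1). Within numbers 3 and 4 Cdkn1b alone was called (-0.53, adjusted p = 0.00227), with 0.81 for Cdkn1a (adjusted p = 0.0565), 0.30 for Cdk4 (adjusted p = 0.0978), -0.18 for Rb1 (adjusted p = 0.654) and 0.69 for E2f1 (adjusted p = 0.207).

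DES-treated COP rats, which share those BN arrays, differed from BN in 2 of 9 genes, beside 25.9% of all genes. Cdkn1a was higher in COP (429 ± 72.5, against 245 ± 59.5 in BN, log2 difference 0.79, adjusted p = 0.00488) and Cdkn1b was lower (5398 ± 222, against 7434 ± 365, -0.46, adjusted p = 0.000431). Neither pair of groups overlapped. With the number set as a block, Cdkn2c (-0.30, adjusted p = 0.0238) and Rb1 (-0.61, adjusted p = 0.0473) were called lower in COP as well, which made 4 genes; without that block their adjusted p was 0.0659 and 0.0623. Cdkn2c was also called with the replicate number as a block (adjusted p = 0.0223) and without COP DES 4 (-0.39, adjusted p = 0.0225) or BN DES 1 (-0.37, adjusted p = 0.0317), and Rb1 without BN DES 4 (-0.80, adjusted p = 0.0153). E2f1, at 0.57 (adjusted p = 0.113), was called without COP DES 3 (0.79, adjusted p = 0.0293) or BN DES 3 (0.82, adjusted p = 0.0185). In numbers 1 and 2 alone Rb1 (-0.98, adjusted p = 0.0137) and E2f1 (1.19, adjusted p = 0.00236) were called, and in numbers 3 and 4 they were not (-0.24 and -0.05, adjusted p = 0.587 and 0.94). DES-treated ACI and COP rats differed in 0 of 9 genes by limma, beside 5.63% of all genes called, and 0 of the 9 had an unadjusted p under 0.05. The widest of these 9 intervals between ACI and COP was that of E2f1 (0.36, 95% interval -0.16 to 0.89), and the narrowest was that of Cdkn1b (-0.09, 95% interval -0.26 to 0.09).

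In controls, Cdkn1b was the single gene called against BN. It was lower in ACI than in BN (3965 ± 18.1, against 5948 ± 912, SD, n = 3 each, log2 difference -0.57, adjusted p = 0.000565), and it was 1 of 9 genes called, beside 7.44% of all genes. It was also lower in COP than in BN (4394 ± 271, against the same BN arrays, -0.43, adjusted p = 0.00987), again 1 of 9, beside 6.03% of all genes. The lowest BN control, at 4929.6, lay above the highest COP control, at 4644. The call between COP and BN needed each of 3 arrays, since it ended without COP control 1 (-0.38, adjusted p = 0.0631), BN control 1 (-0.39, adjusted p = 0.0618) or BN control 2 (-0.33, adjusted p = 0.0774). The call between COP and BN was also lost with only these control groups in the fit (adjusted p = 0.0503). ACI and COP controls differed in 0 of 9 genes by limma, beside 1.19% of all genes called, and 0 of the 9 had an unadjusted p under 0.05. ACI control arrays still lay below the COP controls without overlap for Cdkn1b (-0.15, adjusted p = 0.755) and Cdkn1c (-0.15, adjusted p = 0.833). Against BN, 3 genes passed that unadjusted level in each strain, Cdkn1b among them. The share of all genes at that level is not given, so this count is a description. For ACI the others were Cdkn1a (0.60, adjusted p = 0.124) and Cdkn2a (-0.65, adjusted p = 0.179), whose arrays overlapped. For COP they were Cdk4 (0.25, adjusted p = 0.267) and E2f1 (0.66, adjusted p = 0.246), whose arrays did not overlap. Within numbers 1 and 2 the control differences in Cdkn1b were -0.70 for ACI minus BN and -0.56 for COP minus BN, both called, and within numbers 3 and 4, with 1 control array per strain, they were -0.31 and -0.15, neither called (adjusted p = 0.322 and 0.805). The response of Cdkn1b to DES differed between ACI and BN by 0.03 (95% interval -0.24 to 0.30, adjusted p = 0.927). The dimmer Cdkn1b probe set, described below, did not show the lower levels against BN in controls or after DES.

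For none of the 9 genes was the response to DES called as different between strains by limma. The count was 0 of 9 for ACI against BN (17.8% of all genes called), for ACI against COP (0.647%) and for COP against BN (6.94%). In each, 1 gene had an unadjusted p under 0.05, a level for which no share of all genes is given. These were Cdkn2a for ACI minus BN (0.77, 95% interval 0.03 to 1.51, adjusted p = 0.165) and the differences of Cdk4 and Cdkn2c given above. The Cdkn2a difference was 1.19 in numbers 1 and 2, where it was called (adjusted p = 0.0431), and 0.11 in numbers 3 and 4 (adjusted p = 0.907). The intervals for ACI minus BN were wide for Cdkn1a (0.11, -0.50 to 0.72), Rb1 (-0.50, -1.22 to 0.23) and Rbl1 (0.04, -0.55 to 0.63), and narrower for Cdkn1c (0.24, -0.11 to 0.58), Cdkn2c (-0.15, -0.51 to 0.22) and Cdk4 (0.25, -0.06 to 0.56).

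Cdkn1a, Cdkn1b and Cdkn2c each had a second, dimmer probe set, and no rise was called on these. The dimmer probe set of Cdkn1b had means of 158 ± 93.8, 210 ± 122 and 132 ± 43.0 in DES-treated ACI, COP and BN rats, against 83.8 ± 34.2, 185 ± 98.9 and 78.6 ± 3.02 in controls, and its changes of 0.71, 0.12 and 0.60 did not pass (adjusted p of 0.168, 0.842 and 0.295). It did not show the low ACI level either, with an ACI minus BN difference of 0.13 after DES (95% interval -0.68 to 0.93) and of 0.01 in controls (95% interval -0.92 to 0.94). Its COP minus BN difference was 0.50 after DES (adjusted p = 0.394). In controls that difference was 0.98 (95% interval 0.05 to 1.91, adjusted p = 0.272), and the arrays did not overlap. Neither was called, and both had the opposite sign to the main probe set. For Cdkn2c the dimmer probe set, whose suffix marks probes that can match other transcripts, was lower with DES in ACI (51.1 ± 25.6, against 96.6 ± 18.3, log2 change -0.82, adjusted p = 0.0368), where the groups overlapped and the DES mean was under the lowest 40th percentile. It was not called in COP (79.1 ± 33.4, against 67.3 ± 11.7, 0.13, adjusted p = 0.772) or BN (75.3 ± 14.8, against 80.4 ± 15.4, -0.08, adjusted p = 0.875). The dimmer probe set of Cdkn1a did not pass the filter. It had 43.7, 35.8, 55.3 and 30.6 in DES-treated COP rats, against 2, 3.5 and 22.5 in COP controls, which did not overlap (exact permutation p = 0.0286), and in ACI (means 44.3 and 17.9) and BN (means 28.9 and 24.0) DES and control arrays overlapped.

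**Figure D3:**
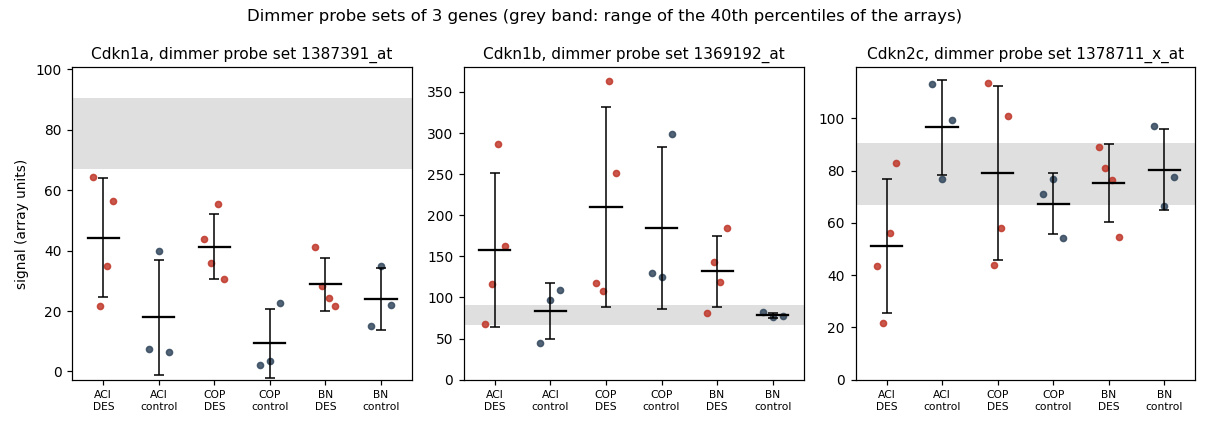
Signal in array units on a linear axis for the dimmer probe sets of Cdkn1a, Cdkn1b and Cdkn2c, with a point for each array, a bar at the mean and whiskers of 1 SD, in DES-treated (red, n = 4) and control (dark, n = 3) rats; the grey band runs from 67 to 90.6, the range of the 40th percentiles of the arrays. All Cdkn1a points lie below the band, and the Cdkn2c points, from 21.7 to 113.6, lie on both sides of it.

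Around these 10 genes, other parts of the pathway were counted from lists that leave the members out. Each count stands beside the shares of all genes called, which in ACI, COP and BN were 23.1%, 21.6% and 16.9% for higher genes, against 32.4%, 28.1% and 22.6% for lower ones. Of 13 tested cyclins and CDKs, 8 rose and 0 fell with DES in ACI, 8 rose and 1 fell in COP, and 3 rose and 1 fell in BN (median log2 changes of 0.68, 0.47 and 0.23). Ccnd3, the D-type cyclin that pairs with CDK4, averaged 3086, 2833 and 1449.6 in DES-treated ACI, COP and BN rats, against 1211, 1006 and 843 in controls, and rose in each (1.37, 1.48 and 0.74, adjusted p = 2.53e-07, 1.21e-07 and 0.00104). Ccnd1, another D-type cyclin, changed by 0.13 in ACI (adjusted p = 0.563), fell by 0.56 in COP (adjusted p = 0.0103) and changed by 0.08 in BN (adjusted p = 0.765). Ccnb1, which drives entry into mitosis, rose in ACI and COP (1.62 and 0.70, adjusted p = 8.91e-08 and 0.0025) and changed by -0.29 in BN (adjusted p = 0.22), and the response of ACI exceeded that of BN for 5 of the 13 genes and was below it for 0, beside 17.8% of all genes called in either direction. Ccnb2, another mitotic cyclin, rose in each strain (2.55, 1.68 and 0.51, with an adjusted p of 0.0268 in BN), and Cdk1, the mitotic kinase, rose in ACI and COP (2.36 and 1.03) but not in BN (0.09, adjusted p = 0.758). In BN the count that rose was 1 when only the BN groups entered the fit.

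Of 16 tested E2F targets that act in S phase, 7 rose and 0 fell with DES in ACI, 2 rose and 2 fell in COP, and 1 rose and 4 fell in BN (median log2 changes of 0.34, 0.04 and -0.17). Mcm6, a subunit of the replicative helicase, averaged 709, 497 and 269 in DES-treated ACI, COP and BN rats, against 423, 456 and 559 in controls. It rose in ACI (0.73, adjusted p = 0.0115), changed by 0.11 in COP (adjusted p = 0.74) and fell by 1.12 in BN (adjusted p = 0.000613), and the ACI response lay above the BN response by 1.85 (adjusted p = 0.000499). Mcm2, of the same helicase, changed by -0.13 in ACI (adjusted p = 0.333) and fell by 0.38 in COP (adjusted p = 0.00716) and by 0.96 in BN (adjusted p = 4.17e-07). Mcm7 rose in BN (0.67, adjusted p = 8.2e-05) and ACI (0.35, adjusted p = 0.014), with 0.21 in COP (adjusted p = 0.14), and Mcm4 rose by 0.82 in ACI (adjusted p = 0.00011) and by 0.65 in COP (adjusted p = 0.00148), with 0.26 in BN (adjusted p = 0.206). The DES response was called as higher in ACI than in BN for 5 of these 16 genes and lower for 0, while 17.8% of all genes were called in either direction.

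Among 15 other pocket protein, E2F and DREAM complex genes, 4 rose and 2 fell in ACI, 3 rose and 3 fell in COP, and 1 rose and 3 fell in BN (medians of -0.04, -0.13 and 0.12). The E2F partner genes went opposite ways: Tfdp1 rose (0.89, 0.73 and 0.83 in ACI, COP and BN, adjusted p = 4.72e-05, 0.000478 and 0.000216) and Tfdp2 fell (-1.64, -1.60 and -1.22, adjusted p = 2.06e-07, 4.12e-07 and 3e-05). Cdkn3, a phosphatase that acts on CDKs, averaged 538, 226 and 116 in DES-treated ACI, COP and BN rats, against 55.5, 99.0 and 100.2 in controls (log2 changes of 2.96, 1.09 and 0.13, adjusted p = 5.04e-10, 0.000563 and 0.708). E2f8, a repressor E2F, rose by 1.27 in ACI (adjusted p = 0.00154) and by 0.79 in COP (adjusted p = 0.0429), with control means of 26.3 and 37.0 near the floor, and changed by 0.25 in BN (adjusted p = 0.566). Rbl2, the remaining pocket protein, was not called (-0.10, -0.35 and -0.35, adjusted p = 0.625, 0.0917 and 0.102). The Ink4 gene Cdkn2d, for p19, was not called either (-0.36, -0.21 and 0.24, adjusted p = 0.124, 0.414 and 0.372).

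Of 10 tested genes of p53 and its targets, a group to which Cdkn1a belongs, 4 rose and 3 fell in ACI and in COP, and 4 rose and 2 fell in BN (medians of 0.31, 0.18 and 0.03). Ccng1, a p53 target of the cyclin G family, rose by 1.93, 1.79 and 0.75 on the log2 scale (adjusted p = 7.93e-14, 4.02e-13 and 5.89e-07), and Phlda3, which restrains AKT, rose by 1.05, 1.25 and 0.51 (adjusted p = 5.58e-05, 9.13e-06 and 0.036). Gadd45a, a stress gene, fell (-0.85, -1.19 and -1.56, adjusted p = 2.07e-05, 3.09e-07 and 1.1e-08), and Sesn1, a stress gene that curbs growth signaling, fell (-1.05, -1.10 and -0.88, adjusted p = 6.49e-06, 4.88e-06 and 0.000128). The listed genes thus went both ways, with Ccng1 and Phlda3 rising like Cdkn1a and Gadd45a and Sesn1 falling. Medians over all genes tested were -0.13, -0.08 and -0.06 in ACI, COP and BN.

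For the 11 tested genes of the breakdown and control of p27, 2 rose and 5 fell in ACI, and 1 rose and 4 fell in COP and in BN (medians of -0.26, -0.22 and -0.24). Cks1b, the cofactor with which SKP2 marks p27, rose in ACI (0.85 on the log2 scale, with means of 953 with DES, against 521 in controls, adjusted p = 4.2e-06) and COP (829, against 559.6, 0.55, adjusted p = 0.000815) and changed by -0.17 in BN (596, against 669.8, adjusted p = 0.317), and its response was higher in ACI than in BN by 1.02 (adjusted p = 0.000344). Kmt2a, whose protein works with menin at the Cdkn1b and Cdkn2c genes in mouse endocrine cells, fell (-1.20, -0.79 and -0.82, adjusted p = 2.09e-06, 0.000415 and 0.000408). Men1, for menin itself, was not called (0.00, -0.04 and -0.43, adjusted p = 0.998, 0.886 and 0.058). Akt1, a kinase that acts on p27 protein, fell (-0.47, -0.46 and -0.82, adjusted p = 0.00181, 0.00233 and 9.51e-06), and Cul1, the scaffold of the SKP2 ligase, fell in ACI and COP (-0.36 and -0.38, adjusted p = 0.00402 and 0.00301), with -0.19 in BN (adjusted p = 0.138).

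Of 10 tested Polycomb and T-box repressors of the Cdkn2a locus, 0 rose, and 4 fell in ACI, 3 in COP and 2 in BN (medians of -0.32, -0.34 and -0.24). These counts of lower genes were near the shares of all genes called lower, which were 32.4%, 28.1% and 22.6%. Cbx7, a Polycomb subunit that holds Cdkn2a silent, averaged 258, 309 and 442 in DES-treated ACI, COP and BN rats, against 1025, 935 and 1018 in controls, and fell (-1.94, -1.56 and -1.17, adjusted p = 7.22e-10, 3.63e-08 and 4.06e-06). The fall was greater in ACI than in BN by a log2 difference of -0.77 (adjusted p = 0.0204). Ezh2, the Polycomb methyltransferase, fell in BN by 1.07 (adjusted p = 0.00186) and changed by -0.25 in ACI and -0.31 in COP (adjusted p = 0.43 and 0.338). Suz12, its partner, fell in COP by 0.73 (adjusted p = 0.00185), with -0.34 in ACI and -0.37 in BN (adjusted p = 0.122 and 0.112), and Phc1 fell in ACI by 0.80 (adjusted p = 0.00672), with -0.57 in COP and -0.51 in BN (adjusted p = 0.0515 and 0.0955).

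**Figure D4:**
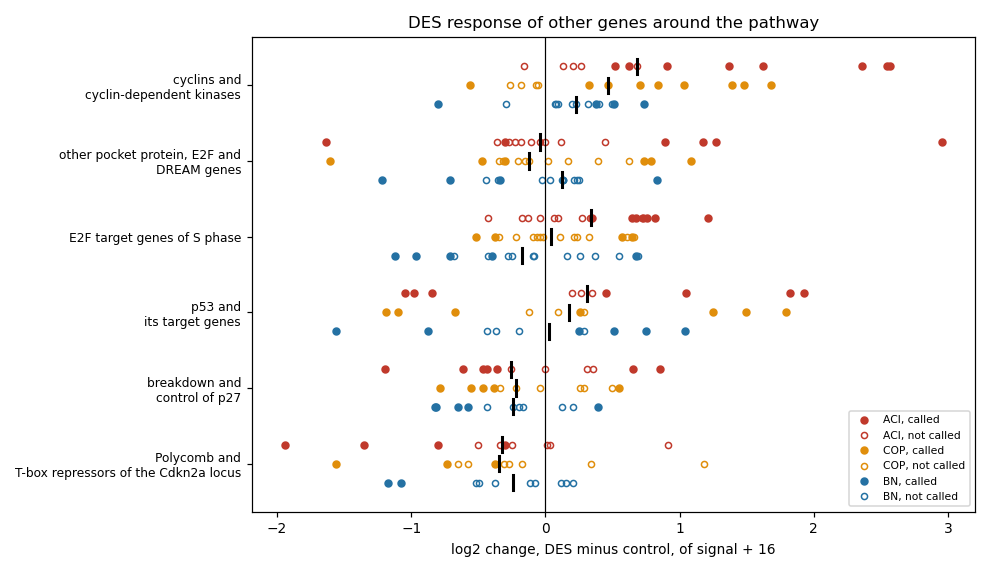
Log2 change of signal + 16, DES minus control, on the horizontal axis for the tested genes of 6 lists around the pathway, a point per gene, in ACI, COP and BN rats (4 DES and 3 control arrays each); filled points were called at an adjusted p under 0.05 and black bars are medians. The medians of the cyclin and CDK list are 0.68, 0.47 and 0.23, and those of the Polycomb list lie left of 0 in the 3 strains.

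Levels of the members were also set beside all other genes over the 21 arrays, where arrays share strain and treatment, so the correlations are descriptions. Cdkn1a was nearest to Armcx4, Znhit1 and Eif4e2 (Pearson r of 0.945, 0.922 and 0.917), Cdkn1b to Smim30l1, Plaat1 and Minpp1 (0.923, 0.898 and 0.892) and Cdkn1c to Sgk3, Tesc and Acadm (0.951, 0.950 and 0.948). Cdkn2c was nearest to Tpi1, a glycolytic enzyme gene, Rln1 and Tmem223 (0.968, 0.961 and 0.955), and Cdk4 to Gnai1, Mknk2 and Abhd17a (0.909, 0.907 and 0.896). The likeness was lower for E2f1, nearest to Cdca8, a gene of the chromosomal passenger complex of dividing cells, RT1-A and Tradd (0.828, 0.824 and 0.822), for Rb1, nearest to Prkaa2, Rimbp2 and Fn3krp (0.837, 0.817 and 0.810), for Rbl1, nearest to LOC100912310, Ppp1cb and Isoc2b (0.861, 0.798 and 0.778), and for Cdkn2a, nearest to Rhoa, Dnajc18 and Rab1b (0.750, 0.723 and 0.717).

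Markers of cell types moved with DES as well. Their counts are to be read against the shares of all genes called. In ACI, COP and BN these were 23.1%, 21.6% and 16.9% for higher genes and 32.4%, 28.1% and 22.6% for lower ones. Of 8 dividing cell markers, 7, 6 and 2 rose in ACI, COP and BN and 0, 0 and 2 fell, and their summed signal ran from 2805 to 2981 in DES-treated ACI rats, against 569 to 782 in controls, from 1719 to 1828 in COP, against 718 to 929, and from 910.3 to 1005 in BN, against 1089.8 to 1357. The median log2 changes of these markers were 2.21, 1.15 and 0.32 in ACI, COP and BN. In BN the sum, which the brightest probe sets dominate, thus went the other way from the median. Gonadotroph markers fell (5, 5 and 4 of 5 in ACI, COP and BN), with sums of 785 to 972, 1458 to 1465 and 2205 to 2677.5 with DES, against 27590 to 34739, 31490 to 35154 and 22741 to 30631 in controls. Of 5 folliculostellate and stem cell markers, 5, 5 and 3 fell and 0, 0 and 1 rose, with sums of 1484 to 2229, 3322 to 4237 and 8276 to 8867 with DES, against 11861 to 14147, 11731 to 13075 and 14823 to 16479 in controls. Leukocyte and macrophage markers rose (7, 8 and 4 of 8, with 0, 0 and 1 lower), with sums of 14643 to 17982, 15529 to 21133 and 8943 to 15096 with DES, against 5870.1 to 6047, 4342 to 5097 and 8804.5 to 10389 in controls. The listed lactotroph markers had sums of 47828 to 58981, 59976 to 74740 and 42745 to 75130 with DES in ACI, COP and BN. Their controls had 37328 to 52165, 40057 to 43352 and 35022 to 38649, so DES and control sums overlapped in ACI alone. Galr1, of that list, was near 0 (group means of 2.83 to 7.10), while Pomc, the marker of corticotrophs, had group means of 53.9 to 307. The part of these cell types in the changes of the 10 genes was not tested.

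Counts for the other marker lists were smaller or mixed, and several were near the shares of all genes given above. In ACI, COP and BN, 1, 2 and 2 of 5 lactotroph markers rose and 1, 1 and 1 fell, 0, 1 and 1 of 5 somatotroph markers rose and 4, 3 and 4 fell, 0, 0 and 1 of 3 thyrotroph markers rose and 1, 2 and 0 fell, and 1, 1 and 1 of 3 corticotroph and melanotroph markers rose and 2, 2 and 1 fell. Endothelial markers rose in 0, 0 and 1 and fell in 4, 2 and 0 of 5, fibroblast and matrix markers rose in 1, 1 and 0 and fell in 3, 4 and 2 of 6, neural lobe and nerve markers rose in 0, 0 and 0 and fell in 1, 2 and 1 of 3, and red blood cell markers rose in 1, 1 and 1 and fell in 1, 1 and 0 of 4.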

How the data were processed

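RNA of the anterior pituitary of 21 rats was measured on Affymetrix Rat Genome 230 2.0 arrays. The deposited values are intensity per probe set on a linear scale, which the authors scaled to a common level; the mean of each array after trimming 2% at each end was 500.1 to 500.2. The software that summarized the probes is not given in the sources used. Of 31099 probe sets, 57 array controls were left out. Platform annotation gave 1 symbol to 20826 probe sets, several to 436 and none to 9780. Probe sets that lay over the 40th percentile on 3 or more arrays were kept (21858), and the one with the highest mean stood for a gene (11750 genes). For log2(signal + 16), means of 6 groups were fitted with limma 3.58.1 in R 4.3.3 (eBayes with trend, 21.6 total degrees of freedom), with Benjamini-Hochberg adjustment over all probe sets kept. Single genes were also given two-sided exact permutation tests. The fit was tested on simulated data in which 200 of 21858 probe sets were changed. For DES in ACI, 58% of log2 changes of 1 and 93% of changes of 2 were recovered. For the response of ACI minus BN, 28% and 80% were recovered, so changes of 1 were often missed in that simulation. Far more genes were called in the data than were changed in the simulation, which makes the adjusted threshold less strict in the data. These shares therefore do not measure recovery in the data. Array number limits the precision.

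The members, lists and motifs were chosen with earlier results of these data known. All members were named, with the 3 most correlated genes of each, and from each pathway list up to 4 genes with the smallest adjusted p over the DES comparisons. Ccnd1, Rbl2, Cdkn2d and Men1 were added after their values were seen. Alternatives were another value added before log2 (1 or 64), other filters, median centring, quantile normalization, eBayes without trend, only the groups compared, blocks by number, number sets alone, other probe sets and each array left out.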

Additional observations from a re-analysis of the deposited data

Results flagged for a closer look

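In 39 groups of 4 DES arrays, 1 array stood apart from the other 3 by Dixon's test in 3 groups, and chance flags about 1 in 20 groups. Cdkn2b had a signal of 74.8 on ACI DES 1, against 7.2, 10 and 15.6 on the other ACI DES arrays, at the floor of the array. Cdkn2c had 1770 on COP DES 4, against 1350, 1370 and 1420 on the other COP DES arrays, and its rise in COP was called with and without that array. E2f1 had 230 on BN DES 3, against 102, 102 and 122 on the other BN DES arrays, and without it the E2f1 change in BN was -0.01.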

How the results depend on the processing

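The number of the 9 genes called held within 1.5 times under other values added before log2, other filters, both scalings and the variance model without trend. With only the groups compared it was 2 for DES in BN, 3 for ACI minus BN after DES and 0 for COP minus BN in controls. With the other probe sets, where Cdkn1a drops out, it was 1 for DES in COP, 1 for DES in BN, 3 for ACI minus BN and 0 for COP minus BN after DES, and 0 for ACI minus BN and 0 for COP minus BN in controls. With numbers 1 and 2 alone it was 4 for COP minus BN after DES, 2 for ACI minus BN and 2 for COP minus BN in controls (Cdkn2a and E2f1 added, at -0.89 and 0.81) and 1 for the response of ACI minus BN (Cdkn2a), and with numbers 3 and 4 alone 1 for ACI minus BN after DES and 0 for ACI minus BN and COP minus BN in controls. With single arrays left out it ran from 5 to 6 for DES in ACI, 3 to 4 in COP and 3 to 5 in BN, from 3 to 5 for ACI minus BN and 2 to 3 for COP minus BN after DES, and from 0 to 1 for COP minus BN in controls. The causes were not tested.

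Numbers in the labels were not taken to pair the arrays, since the labels tie no number to a shared animal or batch and the r of same-numbered arrays reached from -0.0467 to 0.316 (median 0.113), while arrays of different number within a set had a median of 0.112. Of 21 arrays, 13 correlated best on average with their own number in other groups. This count cannot tell pairing by number from the sets, since each set holds few numbers. With the replicate number as a block, 7, 4 and 4 genes were called for DES in ACI, COP and BN, and 3 for COP minus BN after DES. With a block of number sets the count for COP minus BN after DES was 4, with Cdkn2c and Rb1 added.

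Signs turned in these values, which were not called with all arrays. Quantile normalization gave -0.05 for Cdk4 in COP and 0.09 for Rb1 in BN. Rb1 in BN was also 0.02 with centring, 0.01 with the replicate block, 0.30 in numbers 1 and 2, 0.12, 0.01 and 0.13 without BN control 1, BN DES 3 and BN DES 4, and as low as -0.26 without BN DES 1. Rbl1 was -0.13 in COP and -0.14 in BN in numbers 1 and 2, -0.32 in ACI in numbers 3 and 4, and, with single arrays left out, from -0.03 (COP control 3) to 0.22 in COP and -0.01 without BN DES 3 in BN. E2f1 in COP was -0.12 in numbers 3 and 4 and, with single arrays left out, -0.03 (COP DES 2) to 0.37 (COP DES 3), in BN -0.01 (BN DES 3) to 0.37 (BN control 2), and its COP minus BN difference after DES was -0.05 in numbers 3 and 4. Cdkn2a was 0.12 in BN in numbers 3 and 4 and, in COP with single arrays left out, -0.00 (control 2) to 0.48 (control 1). Called values turned with the other probe sets. That of Cdkn2c gave -0.82 in ACI (called lower, adjusted p = 0.0368), -0.08 in BN, and, for values not called before, 0.00 for COP minus BN after DES and 0.21 for that response. The other probe set of Cdkn1b gave, for ACI minus BN and COP minus BN, 0.13 and 0.50 after DES and 0.01 and 0.98 in controls, none of them called, where the main probe set was called in all 4.

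Over all genes, counts of calls moved most with the number sets. ACI and COP controls differed in 140 genes, against 220 with the set block, 839 in numbers 1 and 2, 27 in numbers 3 and 4 and 87 with only these groups. The counts in numbers 1 and 2 and in 3 and 4 were 1785 and 309 for ACI minus BN controls (874 with all arrays), 1247 and 193 for COP minus BN controls (709), and 289 and 17 for the response of ACI minus COP (76, or 162 with the replicate block and 179 with the set block). The response of COP minus BN gave 816, 1229 with the replicate block, 1311 with the set block and 349 in numbers 3 and 4. DES in COP gave 5838, against 3730 in numbers 3 and 4, ACI minus COP after DES 662, against 315, and COP minus BN after DES 3041, against 1804 with only these groups. Median centring moved the median change of all genes to 0.08, 0.02 and 0.02 in ACI, COP and BN. Probe sets near the floor, such as that of Cdkn2b, limit what can be measured.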
